A study of Mus musculus with 12 samples.

Results

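Transcripts of the cytosolic ribosomal proteins were followed in 12 bulk intracranial melanomas. The genes were taken by name, as protein_coding rows of the count table whose symbol is that of a cytosolic ribosomal protein, with the ribosomal S6 kinases left out, so that the rule itself uses symbols and no measured values. This gave 83 of 22046 protein_coding rows (54532 rows in all). Of these, 77 were core members, 46 of the large (60S) and 31 of the small (40S) subunit, and 6 were paralogs that are kept apart, namely Rpl3l, Rpl7l1, Rpl10l, Rpl22l1, Rpl39l and Rps27l. All 77 core members and 4 of the 6 paralogs passed the filter on low counts.

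The tumors came from wild type C57Bl6 mice that carried B16-OVA melanoma, a mouse melanoma line expressing ovalbumin, under the skin of the flank and, from 3 days later, B16-OVA/Fluc cells in the striatum of the brain. CD8H and CD8L tumors came from mice given anti-PD-1 with anti-CTLA-4 (PC blockade) and had been divided by their high or low content of CD8+ T cells, so that the groups were set by a measurement on the tumors and not by a treatment. The dNK tumors came from mice that received the same PC blockade together with an antibody depleting natural killer (NK) cells, which the sample labels name anti-Asialo-GM2 and the study's methods anti-Asialo-GM1. IgG tumors came from mice given control antibody. By the labels, PC blockade or control antibody was given on days 5 and 7 after intracranial implantation and tumors were taken on day 8. There were 3 separate mice per group, all with a flank tumor. The study states that the depleting antibody was given throughout the experiment.

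A ribosome is built from ribosomal RNA and, with few exceptions such as the stalk, a single copy of each of these proteins, so cells make the proteins in matched amounts. Their mRNAs are among the most abundant in growing cells. In mammals they begin with a short run of pyrimidines, the 5′ terminal oligopyrimidine (TOP) motif, through which mTORC1 signalling controls their translation, and MYC is a known driver of ribosome production. Several members also act outside the ribosome: Rpl5 and Rpl11 bind the p53 regulator Mdm2, and Rpl22 is needed in mice for normal development of alpha-beta T cells.

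Because of this motif, runs of C and T were looked for near the annotated starts, and the windows below show the longest such run for genes on which the later results turn. The promoter table of RefSeq (GRCm38.p6) held 57 of the 77 core members. Each line gives 30 bases, 5′ to 3′ on the strand of the gene, with the longest run of C and T within 50 bases of the annotated start in capitals. Rps25 is the single core member that edgeR called different between groups, Rps15 and Rps7 are small subunit members that did not overlap between CD8H and dNK tumors, Rpl34 and Rps27 were among the few members without a negative fold change in CD8H tumors, and Rplp0 had the highest level per length.
Rps25 (chr9:44407684-44407713, plus strand): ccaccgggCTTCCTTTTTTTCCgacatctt
Rps15 (chr10:80292446-80292475, plus strand): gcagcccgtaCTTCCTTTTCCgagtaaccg
Rps7 (chr12:28635911-28635940, minus strand): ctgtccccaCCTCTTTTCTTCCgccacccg
Rpl34 (chr3:130730330-130730359, minus strand): acccgCCCCTTCCTTTTCCTCTTCCgggga
Rps27 (chr3:90213632-90213661, minus strand): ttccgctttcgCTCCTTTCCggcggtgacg
Rplp0 (chr5:115559466-115559495, plus strand): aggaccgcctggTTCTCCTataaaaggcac

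A run of at least 8 C or T bases was found on the strand of the gene within 50 bases of a start for 48 of the 57 core members (84.2%), against 38.8% of 16497 protein_coding genes in the same table. The run in the Rplp0 window had 7 bases and was therefore not counted. Relative to the annotated start, the printed runs begin at -22 for Rps25, 26 for Rps15, 23 for Rps7, -17 for Rpl34, -2 for Rps27 and 12 for Rplp0, so they lie near a start and are not shown to be the first bases of the mRNA. Over the 300 bases of each promoter window, the ETS-type motif CCGGAAG, read on both strands, was present in 24 of the 57 core members (42.1%) and in 13.3% of all protein_coding genes of the table. These are matches of letters in a window and say nothing of whether a factor was bound in these tumors. The other 20 core members had no entry in the table and were not searched.

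Core members were among the abundant transcripts of these tumors, with a broad range between single genes. The level per length is given as the authors' FPKM, since counts of genes of unequal length cannot be compared. Averaged over the 12 tumors, 71 of the 77 core members had at least 200 FPKM, and the median was 558 FPKM for small subunit and 541 FPKM for large subunit members. The highest was Rplp0 (ENSMUSG00000067274, chromosome 5 of GRCm38 from 115559467 to 115563727), the stalk protein that anchors Rplp1 and Rplp2, at 2102 FPKM (1185 to 3039 over tumors). Rpsa, a small subunit protein also known as a laminin receptor precursor, followed at 1555 FPKM, and Rplp1 at 1376 FPKM. Rpl6 and Rpl4 of the large subunit had 1235 and 1139 FPKM, and Rps7, Rps2 and Rps3a1 of the small subunit had 1172, 1089 and 934 FPKM. The stalk protein Rplp2 had 479 FPKM, so the 3 stalk genes differed in level although their proteins sit in 1 complex.

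Rpl24 (chromosome 16, 55966275 to 55971435), Rps10 (chromosome 17, 27630418 to 27636669) and Rpl13a (chromosome 7, 45125558 to 45128761) stood below all other core members. Rpl24 had 1.56 FPKM (6 to 24 counts per tumor), Rps10 6.25 FPKM (50 to 138 counts) and Rpl13a, known from human cells as part of an interferon gamma-activated inhibitor of translation, 61.4 FPKM (430 to 1211 counts). These 3 were also the 3 core members whose exons overlapped another annotated gene on the same strand over at least 20% of their length in GENCODE M21. The overlap was 47.0% for Rpl24 with Gm28037, 20.6% for Rps10 with RPS10-NUDT3 and 35.4% for Rpl13a with Gm45713, and the rows of Gm28037, RPS10-NUDT3 and Gm45713 held 0 counts in the 12 tumors. In the other core members the overlap reached at most 14.5% and it was 0 in 50 of the 77. The part of these overlaps in the low counts was not tested.

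Many core members also resemble other annotated genes. Over 100-base windows of the first protein_coding transcript, the median core member shared 34.8% of its windows exactly with a transcript of a gene elsewhere, and 29 of the 77 shared over 50%. Rps27 shared 98.4%, Rpl10 91.6% and Rpl9 87.0%, whereas Rps3, Rps21, Rpl22 and Rpl32 were among those that shared none. How reads that fit several places were counted is not given in the sources used here, and values of single members with many shared windows are uncertain.

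**Figure D1:**
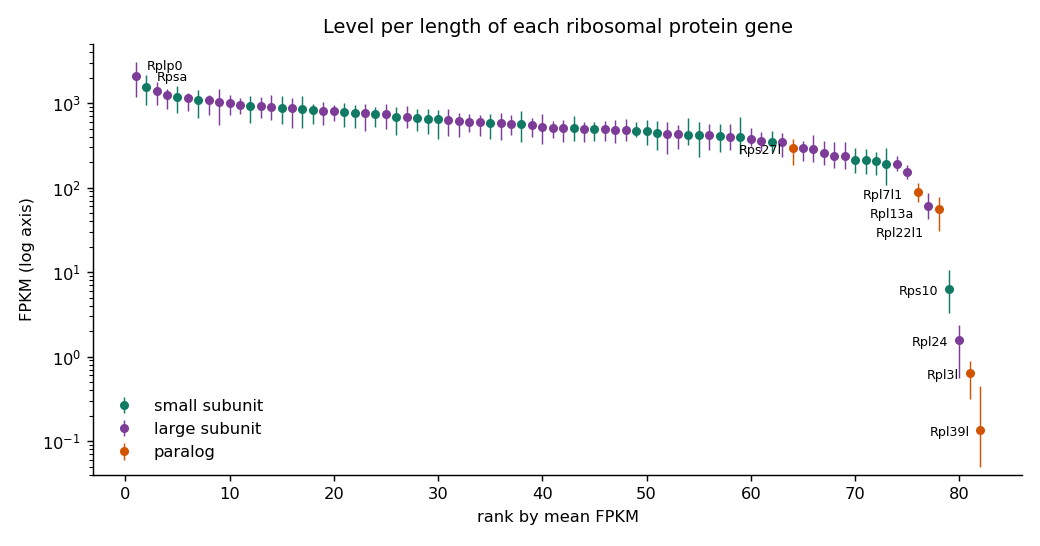
FPKM of each ribosomal protein gene on a log axis, ranked by its mean over 12 tumors (points), with lines from the lowest to the highest tumor, drawn to no less than 0.05. Rpl10l, at 0 in the 12 tumors, is left out. 71 of the 77 core members lie at or above 200 FPKM, and Rpl13a, Rps10 and Rpl24 lie below the rest.

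The paralogs fell into a group with moderate levels and a group near 0. Rps27l, a paralog of Rps27 that p53 is known to induce, had 291 FPKM, more than several core members. Rpl7l1, whose human counterpart acts in assembly of the large subunit, had 89.1 FPKM, and Rpl22l1, the paralog of Rpl22, had 56.5 FPKM against 151.9 FPKM for Rpl22. Rpl3l, which in mice and humans is a protein of heart and skeletal muscle ribosomes, was at 6 to 20 counts per tumor, and Rpl39l, known from testis, at 0 to 5 counts. Rpl10l, a testis paralog of Rpl10, had 0 counts in all 12 tumors, whose smallest library held 16336993 counts.

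Total counts per tumor were between 16336993 and 26416214. The melanocyte lineage markers, the identity of the implanted cells, were abundant in all tumors (10 of 10 tested, mean log2 CPM 8.31 to 9.16 in CD8H, 9.24 to 9.45 in dNK, 9.32 to 9.60 in CD8L and 9.22 to 9.36 in IgG tumors). The T cell markers averaged a log2 CPM of 4.18 to 5.56 in CD8H tumors and -2.62 to 2.34 in the 9 others. The NK cell markers averaged -2.51 to -1.76 in dNK tumors, against 0.83 to 1.86 in IgG tumors, in the direction of the depletion. These markers averaged 2.30 to 3.16 in CD8H and -0.04 to 1.31 in CD8L tumors, and were highest in the CD8H tumors. CPM here are read counts scaled to library size after TMM normalization, which sets the libraries on 1 scale by genes taken not to differ. CD8H tumor 2 stood apart from the other CD8H tumors, with the highest neuron markers of the series (mean log2 CPM 7.29) and the lowest melanocyte lineage markers, and the main values are also given without it. Macrophage and microglia markers averaged 5.53 to 5.77 in CD8H, 3.38 to 4.16 in dNK, 4.001 to 4.61 in CD8L and 4.87 to 4.88 in IgG tumors, and B cell markers 1.05 to 2.08 in CD8H, -1.50 to -1.03 in dNK, -0.74 to -0.60 in CD8L and -1.08 to 0.27 in IgG tumors, both highest in the 3 CD8H tumors.

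The share of protein_coding counts taken by the 77 core members overlapped between all groups. It was 3.91%, 2.46% and 3.32% in CD8H tumors 1, 2 and 3, 4.63%, 3.96% and 3.69% in dNK tumors, 4.14%, 3.50% and 3.18% in CD8L tumors and 4.02%, 3.14% and 3.41% in IgG tumors. The highest share of all was that of dNK tumor 1 and the lowest that of CD8H tumor 2, and the lowest dNK tumor lay above 2 of the 3 tumors in each other group. The group means were 3.23 ± 0.73% in CD8H, 4.09 ± 0.49% in dNK, 3.60 ± 0.49% in CD8L and 3.53 ± 0.45% in IgG tumors (SD, n = 3 each). With all counts or nuclear protein_coding counts as the base, the means of the 4 groups moved by less than their SD.

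**Figure D2:**
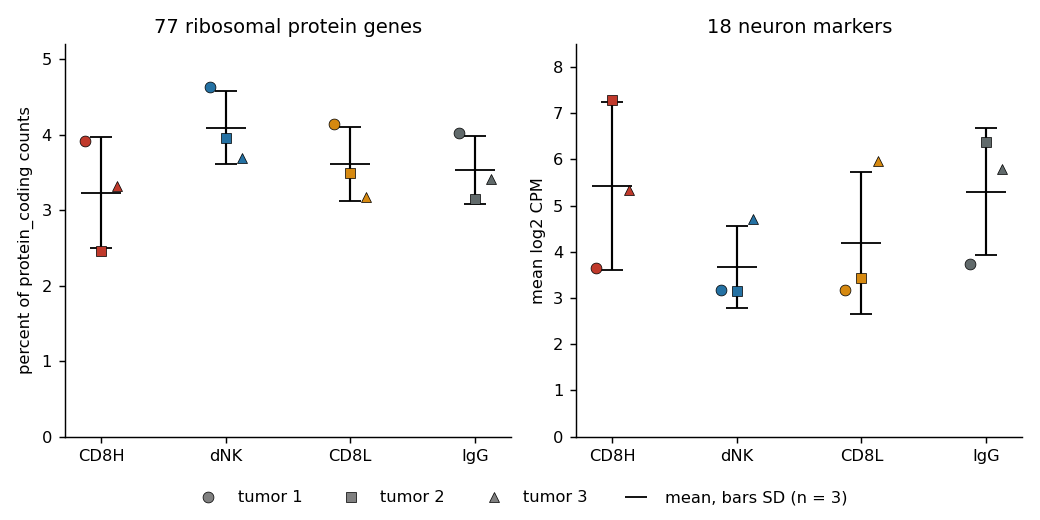
Left, percent of protein_coding counts in the 77 core ribosomal protein genes, and right, mean log2 CPM of 18 neuron markers, by tumor (points) and group (line, mean, with bars of 1 SD, n = 3). CD8H tumor 2 has the lowest ribosomal share, 2.46%, and the highest neuron markers, 7.29.

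Most members ranked the tumors alike. Of the 77 core members, 60 had their highest level in dNK tumor 1 and 68 their lowest in CD8H tumor 2. The mean log2 CPM over the core members was 8.60, 7.78 and 8.25 in CD8H tumors, 8.86, 8.53 and 8.47 in dNK tumors, 8.70, 8.34 and 8.11 in CD8L tumors and 8.57, 8.13 and 8.30 in IgG tumors. Neuron markers, which report brain tissue in the sample, were read from the same libraries. Averaged over the 18 markers, their log2 CPM was 3.66, 7.29 and 5.34 in CD8H, 3.16, 3.15 and 4.71 in dNK, 3.17, 3.44 and 5.97 in CD8L and 3.74, 6.37 and 5.79 in IgG tumors 1, 2 and 3. The tumor with the highest neuron markers was therefore also the one with the lowest ribosomal share in each of the 4 groups. The summed level of the neuron list was 921 to 4070 CPM in CD8H, 540 to 944 CPM in dNK, 546 to 2325 CPM in CD8L and 718 to 2590 CPM in IgG tumors, and none of the 18 markers was at 0 throughout. The part of brain tissue in the ribosomal protein values was not tested, and in bulk tissue fewer cells of a type and less RNA per cell cannot be told apart.

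**Figure D3:**
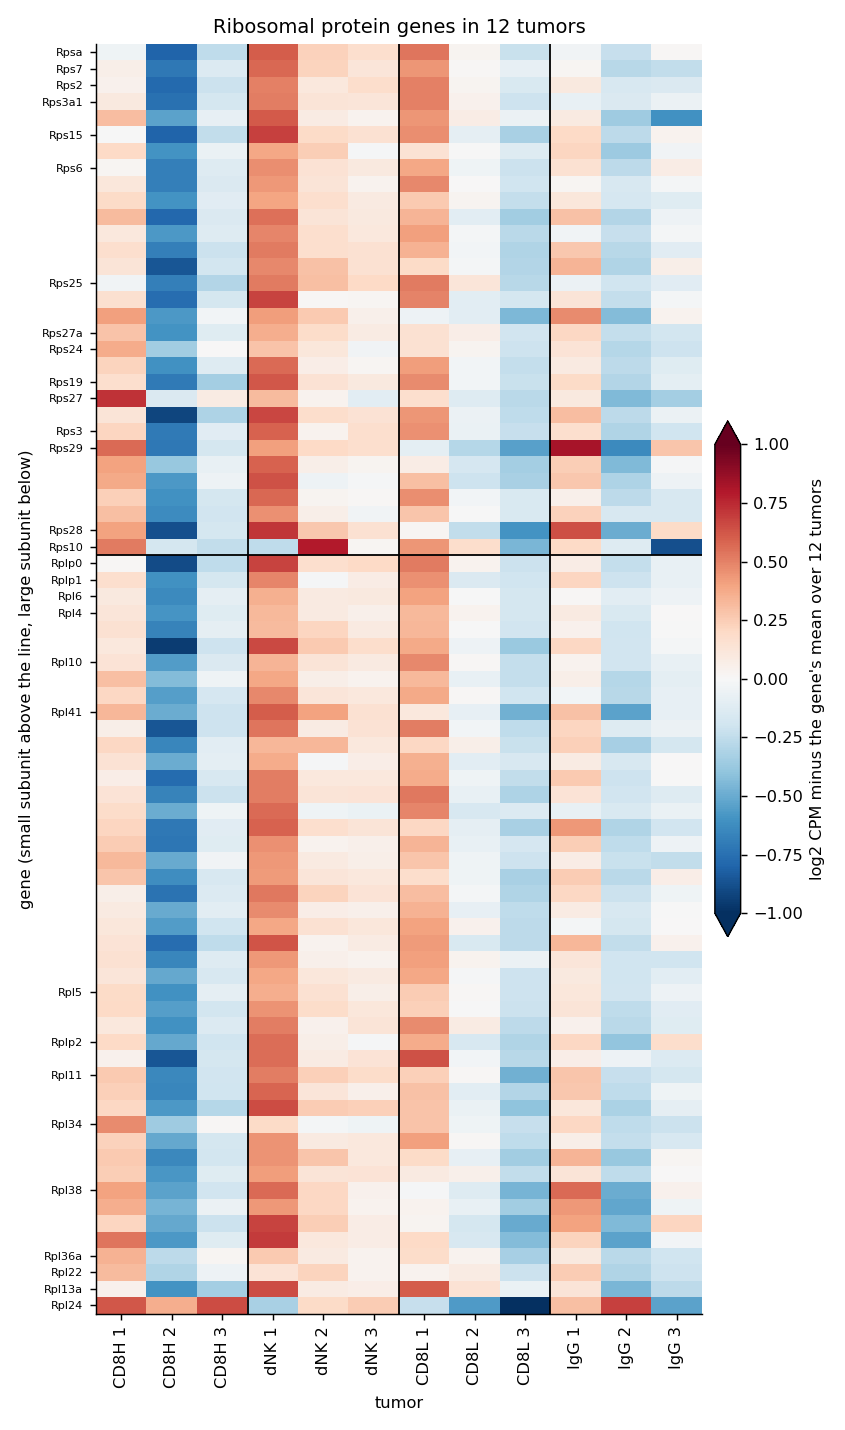
Each row is 1 of the 77 core members, ordered by mean FPKM within the small (top) and large (bottom) subunit, and each column a tumor, with named members labelled. Colour is log2 CPM minus the mean of that gene over 12 tumors. The column of CD8H tumor 2 holds the lowest value of 68 members, and that of dNK tumor 1 the highest value of 60.

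The first comparison asked how tumors with many CD8+ T cells differed from the rest, with CD8H set against dNK, CD8L and IgG tumors averaged. Of 77 core members, 0 were called by edgeR's quasi-likelihood test, while 26.3% of the 17320 genes tested were called (14.4% higher and 11.9% lower). A gene was called where both its p and its p after Benjamini-Hochberg adjustment over those 17320 genes were no more than 0.05, and with 3 tumors per group the p measures the spread between mice. Before adjustment, 2 had a p of no more than 0.05, Rps25 and Rpsa, both with negative fold changes, against 41.6% of all genes. DESeq2 called the same 2, both lower, against 36.9% of all genes. No core member had all CD8H tumors above or all below the 9 others, where 10.6% of all genes lay above and 9.08% below. The fold changes of the core members were small and mostly negative, with 71 of 77 (92.2%) below 0 against 46.8% of all genes tested. Their median log2 fold change was -0.23 and that of all genes 0.05. Without CD8H tumor 2 the median was -0.02, and without CD8H tumor 1, the highest of its group, it was -0.44 and 3 core members were called lower, where 25.8% of all genes were called. Without CD8L tumor 3 there was 1 call, also lower, where 39.5% of all genes were called. For 76 of the 77, the 95% interval of the log2 fold change lay within 1 on either side of 0, Rpl24 being the exception, so a change of over 2-fold lay outside the interval for each of these.

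The median log2 fold change was -0.24 over the small and -0.22 over the large subunit members. The 40S genes took 39.8 ± 0.37% of the core counts in CD8H, 40.6 ± 0.45% in dNK, 40.4 ± 0.12% in CD8L and 39.8 ± 0.20% in IgG tumors (SD, n = 3 each). The highest tumor was dNK tumor 1 at 41.01% and the lowest CD8H tumor 2 at 39.44%.

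Among the most negative fold changes were those of the most abundant members. Rplp0 was at 1811, 969 and 1511 CPM in CD8H tumors, against 2874, 2018 and 2067 in dNK, 2573, 1844 and 1554 in CD8L and 1891, 1524 and 1705 CPM in IgG tumors. CD8H tumor 1 lay within the range of the CD8L and IgG tumors. Its log2 fold change against the 3 other groups was -0.48 (standard error 0.23, 95% interval -0.98 to 0.02, adjusted p = 0.135) and, without CD8H tumor 2, -0.245. Rpsa (chromosome 9, 120127689 to 120132369) was at 1521, 903 and 1319 CPM in CD8H, 2388, 1845 and 1766 in dNK, 2273, 1599 and 1347 in CD8L and 1531, 1337 and 1583 CPM in IgG tumors. The 2 lower CD8H values lay below all others, and tumor 1 did not. Its log2 fold change was -0.47 (standard error 0.21, adjusted p = 0.112) and, without CD8H tumor 2, -0.27.

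The other small subunit members at that end were Rps15, a protein of the decoding side of the subunit, and Rps2, at its mRNA entry. Rps15 was at 441, 253 and 373 CPM in CD8H and 709, 503 and 490 in dNK tumors, with 354 to 610 CPM in CD8L and 368 to 506 CPM in IgG tumors. Rps2 was at 955, 538 and 795 CPM in CD8H and 1311, 997 and 1044 in dNK tumors, with 833 to 1309 CPM in CD8L and 827 to 988 CPM in IgG tumors. Their log2 fold changes against the 3 other groups were -0.45 for Rps15 and -0.40 for Rps2, neither past edgeR's threshold, and without CD8H tumor 2 they were -0.24 and -0.18. Rpl13a, whose counts are low, had -0.40 (adjusted p = 0.162), and -0.245 without that tumor.

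At the other end, 6 core members had a positive fold change, and the 6 are Rpl24, Rps27, Rpl34, Rpl36a, Rps10 and Rps24. Rps27, a zinc finger protein of the small subunit, was at 323, 177 and 208 CPM in CD8H, 243, 201 and 182 in dNK, 219, 179 and 162 in CD8L and 210, 144 and 154 CPM in IgG tumors. CD8H tumor 1 was the highest of the 12, and the other CD8H tumors lay among the rest (log2 fold change 0.33, adjusted p = 0.193). Its log2 fold change was 0.03 without CD8H tumor 1 and 0.52 without CD8H tumor 2. Rpl34, Rpl36a, Rps10 and Rps24 had log2 fold changes of 0.08, 0.06, 0.03 and 0.03, and each was negative without CD8H tumor 1. Rpl24 was at 1.14, 0.957 and 1.17 CPM in CD8H, 0.592, 0.849 and 0.887 in dNK, 0.632, 0.501 and 0.279 in CD8L and 0.912, 1.19 and 0.513 CPM in IgG tumors. At 6 to 24 counts per tumor, its log2 fold change of 0.67 had an interval of -0.04 to 1.38 (adjusted p = 0.139).

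**Figure D4:**
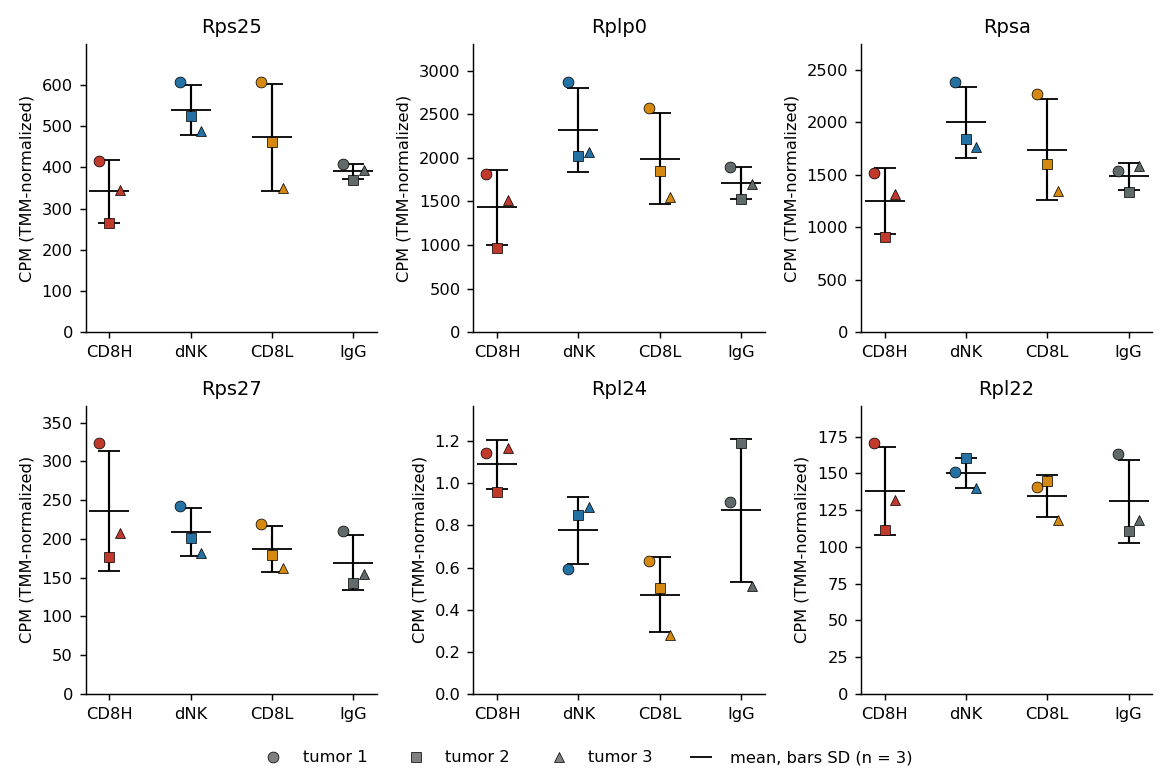
CPM after TMM normalization of 6 core members by tumor (points) and group (line, mean, with bars of 1 SD, n = 3), each with its own axis from 0. Rps25, Rplp0 and Rpsa had their lowest value in CD8H tumor 2. For Rps25 the 3 dNK tumors lie above the 3 CD8H tumors.

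The next comparison set CD8H tumors against dNK tumors, from mice given the same PC blockade with the NK-depleting antibody. The CD8H tumors were those PC-treated tumors with many CD8+ T cells, so the groups differ in this selection as well as in the depletion. This comparison had the most negative median of the 7 comparisons. Rps25 was the only core member called (1.3% of the 77, against 30.3% of all genes tested), and it was lower in CD8H tumors, as 14.6% of all genes were. Rps25 (ENSMUSG00000009927, chromosome 9 of GRCm38 from 44407139 to 44410427), a small subunit protein that in mammalian cells is needed for initiation at certain viral internal entry sites, was at 415, 264 and 347 CPM in CD8H and 608, 525 and 488 CPM in dNK tumors. It was at 609, 461 and 350 CPM in CD8L and 408, 371 and 393 CPM in IgG tumors. The CD8H and dNK tumors did not overlap, and the log2 fold change was -0.66 (standard error 0.21, 95% interval -1.12 to -0.19, edgeR adjusted p = 0.0378). The adjusted p was 0.116 without CD8H tumor 2, 0.0645 without CD8H tumor 3, 0.103 without dNK tumor 1, 0.0679 without dNK tumor 2, 0.0507 without CD8L tumor 2 and 0.069 in a fit of the 6 compared tumors, and the direction held in each. Exons of Trappc4, on the opposite strand, and of 1 other gene together cover 24.8% of the exonic bases of Rps25, with 0% on its own strand. Since no source used here states the strand setting of the counting, reads of these genes may be mixed.

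A further 11 core members had a p of no more than 0.05 before adjustment, all with negative fold changes, among them Rpsa, Rps15, Rplp0, Rpl37a, Rps7, Rpl27, Rpl10a, Rps16, Rps2 and Rpl13a. Together with Rps25 they are 15.6% of the 77, while 46.4% of all genes had such a p. Their log2 fold changes lay between -0.70 (Rplp0) and -0.54 (Rpl10a). DESeq2 called 11 core members, all lower, where it called 44.8% of all genes. Leaving out CD8H tumor 1 gave 31 calls where 35.2% of all genes were called, leaving out CD8L tumor 1 gave 3 where 32% were, and leaving out CD8L tumor 3 gave 2 where 35.7% were, all lower. Leaving out CD8H tumor 2, CD8H tumor 3 or dNK tumor 1 gave 0, where 20.3%, 26.2% and 19% of all genes were called. Leaving out dNK tumor 2 or CD8L tumor 2 also gave 0. The shares of all genes called in those fits are not given here, so these counts cannot be set against them. The 3 CD8H tumors lay below the 3 dNK tumors in 18 core members (23.4%), near the 25.0% of all genes that did so, and above them in 1, Rpl24, where 23.6% of all genes did so. The median log2 fold change was -0.37, and 74 of 77 were negative, against 47.9% of all genes. Without CD8H tumor 2 the median was -0.19.

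Against CD8L tumors, which had the same treatment and fewer CD8+ T cells, 0 core members were called in CD8H tumors with edgeR, against 11.2% of all genes (6.03% higher and 5.16% lower). DESeq2 called 1, which was higher, and 24.2% of all genes. Before adjustment, 2 core members had a p of no more than 0.05, namely Rpl24 (log2 fold change 1.2, standard error 0.42, 95% interval 0.27 to 2.12, adjusted p = 0.0869) and Rps25 (-0.47, adjusted p = 0.158). Of all genes, 30.9% had such a p. For Rpl24 the 3 CD8H tumors lay above the 3 CD8L tumors, the only core member of which this held in either direction, where 15.6% of all genes lay above and 15.5% below. The median log2 fold change of the 77 was -0.20, and it was 0.01 without CD8H tumor 2. Without CD8L tumor 3, 1 core member was called, which was lower, and 22.5% of all genes were called.

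Against IgG tumors, 0 core members were called in CD8H tumors with edgeR or DESeq2 (0 each), and 0 reached a p of 0.05 before adjustment. Of all genes, edgeR called 0.745% (0.577% higher and 0.167% lower) and DESeq2 12.1%, and 19.1% had such a p before adjustment. The median log2 fold change was -0.11 and turned to 0.08 without CD8H tumor 2. No core member was without overlap, where 14.3% of all genes lay above and 13.2% below. For 73 of the 77, the 95% interval lay within 1 on either side of 0.

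Among the groups with few CD8+ T cells, the core members were highest in dNK tumors. The group mean of log2 CPM was highest in dNK tumors for 75 of the 77 core members and lowest in CD8H tumors for 58, in CD8L tumors for 10 and in IgG tumors for 9. Between dNK, CD8L and IgG tumors, no difference of a core member passed the test. In dNK against CD8L tumors, 0 core members were called by edgeR, 0 by DESeq2 and 0 reached a p of 0.05 before adjustment. Of all genes, edgeR called 0% and DESeq2 0.872%, and 6.07% had such a p before adjustment. All 77 log2 fold changes were above 0, where 53.2% of those of all genes were below 0. The median of the 77 was 0.19, and it was 0.38 without CD8L tumor 1. Without dNK tumor 1 it was 0.06, with 60 of 77 above 0. In 8 core members (10.4%) the 3 dNK tumors lay above the 3 CD8L tumors, against 3.23% of all genes, and in 0 they lay below, against 6.88% of all genes. The 8 are Rpl30, Rpl35a, Rpl37, Rpl38, Rpl41, Rps23, Rps28 and Rps29.

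In dNK against IgG tumors, 0 core members were called by edgeR and 0 by DESeq2. Of all genes, edgeR called 0.0173% and DESeq2 5.32%. Before adjustment, Rps25 alone had a p of no more than 0.05 (log2 fold change 0.47, adjusted p = 0.331), against 15.0% of all genes. The median was 0.27 and 75 of 77 were positive, the others being Rpl24 (-0.16) and Rps29 (-0.01). Of all genes, 49.1% had a negative fold change. In 18 core members (23.4%) the dNK tumors lay above the IgG tumors without overlap, against 17.2% of all genes, and in 0 below them, against 14.0% of all genes. CD8L against IgG tumors gave 0 calls by edgeR and by DESeq2, and 0 core members with a p of no more than 0.05 before adjustment. Of all genes, edgeR called 0% and DESeq2 0.00577%, and 2.19% had such a p before adjustment. The median was 0.09 there, or -0.06 without CD8L tumor 1, and no core member was without overlap, against 3.77% of all genes above and 2.54% below. The comparisons with a common group share its 3 tumors and are not independent of each other.

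**Figure D5:**
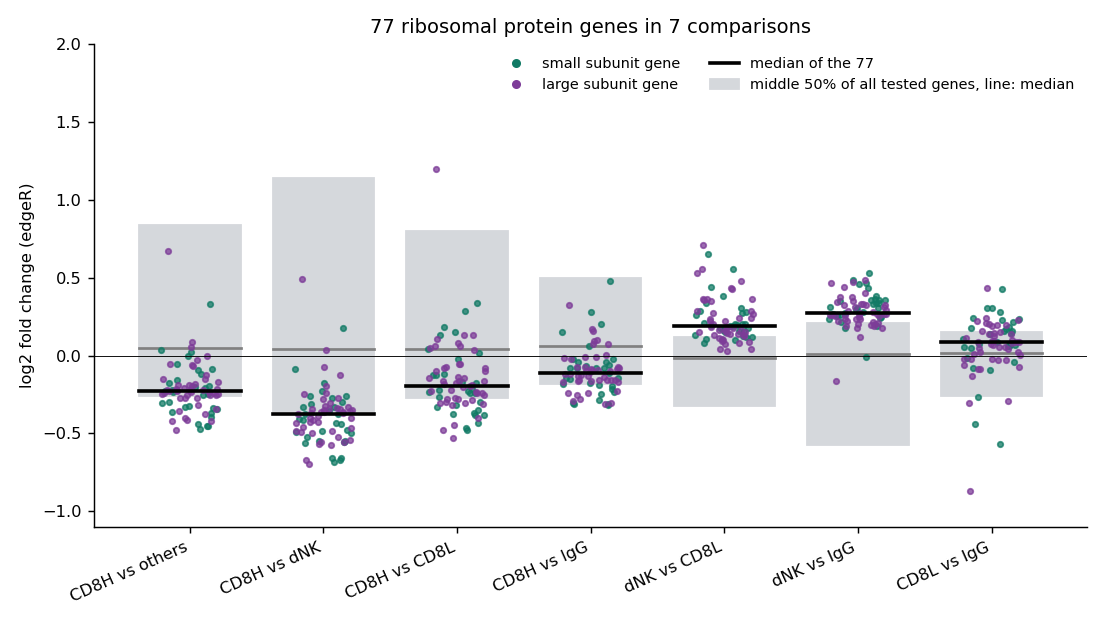
Log2 fold change of the 77 core members (points) in 7 comparisons, each with the first named group over the second, with the median of the 77 (black line) and the middle 50% and median of all 17320 tested genes (grey). The medians of the 77 run from -0.37 in CD8H against dNK to 0.27 in dNK against IgG.

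The median spread of the members within their groups was near that of all tested genes, which were not matched to the members in level. The within-group SD of log2 CPM had a median of 0.31 over the core members and of 0.30 over all genes tested. It was smallest for Rpl36a (0.23), Rpl22 (0.23) and Rpl4 (0.24) and largest for Rps29 (0.51), Rps10 (0.49) and Rps28 (0.48). Rpl22 was at 171, 112 and 132 CPM in CD8H, 151, 160 and 140 in dNK, 141, 145 and 118 in CD8L and 163, 111 and 119 CPM in IgG tumors. Its log2 fold change in CD8H tumors against the 3 other groups was 0.00 (95% interval -0.33 to 0.32), so its level differed between these groups by less than its spread. Rps29 was at 239, 97.99 and 143 CPM in CD8H, 213, 185 and 180 in dNK, 151, 132 and 110 in CD8L and 285, 104 and 195 CPM in IgG tumors, and its highest and its second lowest value were both in the IgG group.

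In comparisons with CD8L tumors, members with a short coding sequence had other fold changes than the longer ones. This was noticed in the values and is given as a description. The 21 core members of at most 375 coding bases, stop codon not counted, include Rpl41 (75), Rpl39 (153), Rps29 (168), Rps28 (207) and Rpl38 (210), and the longest core member is Rpl4 (1257). The mean log2 CPM of these 21 minus that of the 56 longer members was -0.63, -0.69 and -0.76 in CD8H tumors, -0.72, -0.74 and -0.78 in dNK tumors, -0.94, -0.84 and -0.88 in CD8L tumors and -0.63, -0.93 and -0.69 in IgG tumors. The 3 CD8L tumors lay below the CD8H and dNK tumors, and IgG tumor 2 lay with the CD8L tumors. In CD8H against CD8L tumors, the median log2 fold change was 0.05 in the 21 short and -0.23 in the 56 longer members. In dNK against CD8L tumors it was 0.35 and 0.17. Across the 77 members, which share the same libraries, Spearman's rho between coding length and log2 fold change was -0.61 for CD8H against CD8L, -0.51 for dNK against CD8L and 0.51 for CD8L against IgG. Over 6528 other genes of the same range of coding length it was 0.02, -0.08 and -0.09 in the same comparisons. In comparisons of 2 groups without CD8L tumors the members' rho was -0.21 for CD8H against dNK, -0.17 for CD8H against IgG and 0.1 for dNK against IgG. The medians of short and longer members there were -0.36 and -0.39, -0.08 and -0.12, and 0.26 and 0.28. For CD8H against the 3 other groups, rho was -0.42 and the medians were -0.17 and -0.24.

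Rpl41, the shortest member at 75 coding bases, was at 624, 352 and 431 CPM in CD8H and 756, 657 and 553 CPM in dNK tumors. It was at 535, 469 and 356 CPM in CD8L tumors and 610, 343 and 469 CPM in IgG tumors, so that the 3 dNK tumors lay above the 3 CD8L tumors. Rpl38, which in mice is known for its part in translating certain Hox mRNAs, was at 141, 73.0 and 92.9 CPM in CD8H, 157, 122.6 and 109 in dNK, 77 to 105 in CD8L and 75.1 to 157 CPM in IgG tumors. It too was higher in each dNK tumor than in each CD8L tumor. Rps28 was at 105, 42.8 and 69.8 CPM in CD8H, 129, 95.2 and 87.5 in dNK, 79.9, 66.5 and 52.1 in CD8L and 55.8 to 124 CPM in IgG tumors, with the same order of dNK and CD8L tumors.

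Members known for a role outside the ribosome gave no call by edgeR in CD8H tumors against the 3 other groups, and DESeq2 called Rpsa among them. Rpl5 and Rpl11, which bind Mdm2 together with 5S rRNA, had log2 fold changes of -0.19 (95% interval -0.56 to 0.17) and -0.22 (-0.68 to 0.23). Rpl5 was at 586, 337 and 483 CPM in CD8H, 658, 571 and 533 in dNK, 613, 517 and 445 in CD8L and 554, 450 and 496 CPM in IgG tumors, with overlap of the CD8H tumors and each other group. Rps3, which also takes part in DNA repair, had -0.25, Rps6, the substrate of the S6 kinases, -0.34, and Rps19, the gene most often mutated in human Diamond-Blackfan anemia, -0.37. Rps27a, which is made as a fusion with ubiquitin, had -0.16 and Rpl10, which closes the assembly of the large subunit, -0.24. The stalk proteins Rplp1 and Rplp2 had -0.26 and -0.22. Without CD8H tumor 2 the values were closer to 0, at 0.0093 for Rpl5, -0.01 for Rpl11, -0.015 for Rps3, -0.14 for Rps6, -0.16 for Rps19, 0.052 for Rps27a, -0.06 for Rpl10, -0.06 for Rplp1 and -0.05 for Rplp2.

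Of the paralogs, 4 were tested and none was called by edgeR in CD8H tumors against the 3 other groups. Rps27l was at 143, 77.6 and 112 CPM in CD8H, 184, 158 and 147 in dNK, 158, 135 and 103 in CD8L and 141, 102 and 121 CPM in IgG tumors. The 3 dNK tumors lay above the 3 CD8H tumors (log2 fold change of CD8H against dNK -0.55, adjusted p = 0.0817). Rpl22l1 was at 38.6, 18.5 and 34.6 CPM in CD8H, 48.9, 37.6 and 40.3 in dNK, 56.6, 43.4 and 32.4 in CD8L and 34.2, 34.8 and 24.9 CPM in IgG tumors, with overlap between CD8H tumors and each other group (log2 fold change against the 3 other groups -0.34, adjusted p = 0.271). Rpl7l1 had -0.23 and Rpl3l, at its few counts, -0.60, with intervals of -0.59 to 0.12 and -1.39 to 0.20. Without CD8H tumor 2, Rpl22l1 and Rpl7l1 had -0.07 each and Rpl3l -0.98.

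Other genes that make ribosomes and run translation were read from the same fit. In CD8H against the 3 other groups, where 11.9% of all genes were called lower, 17 of 50 ribosome biogenesis factors were called lower and 0 higher, with a median log2 fold change of -0.39. The subunits and factors of RNA polymerase I, which transcribes the ribosomal RNA, had 5 of 19 called lower and 0 higher (median -0.27), the initiation factors 5 of 30 (median -0.33) and the cytosolic aminoacyl-tRNA synthetases 2 of 20 (median -0.17), each with 0 higher. Of 17 elongation factors and other TOP mRNAs, 1 was called lower and 0 higher (median -0.30), and of 10 MYC and TOP regulators 3 were called lower and 0 higher (median -0.22). The synthetases and the elongation factors with other TOP mRNAs thus lay below the share of all genes called lower. These counts moved with single tumors. Without CD8H tumor 2, which had the highest neuron markers, 5 biogenesis factors, 2 RNA polymerase I genes, 1 initiation factor, 1 aminoacyl-tRNA synthetase, 2 regulators and 0 elongation factors were called lower, while 15.3% of all genes were called in either direction. The biogenesis factors called lower were 28 without CD8H tumor 1 and 33 without CD8L tumor 3, where 25.8% and 39.5% of all genes were called in either direction. Without CD8L tumor 2 they were 10, with the share of all genes called not given here. In CD8H against dNK tumors, where 14.6% of all genes were called lower, 22 of 50 biogenesis factors were called lower. Without CD8H tumor 2 they were 6, where 20.3% of all genes were called in either direction. The part of brain tissue, or of the macrophages, microglia, T, NK and B cells whose markers were higher in CD8H tumors, was not tested in these counts.

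Utp20, a factor of small subunit processing, was at 63.7, 49.8 and 67.6 CPM in CD8H, 86.8, 100.1 and 90.6 in dNK, 91.5, 96.9 and 76.8 in CD8L and 83.9, 82.9 and 86.6 CPM in IgG tumors. The 3 CD8H tumors lay below the 9 others (edgeR log2 fold change -0.55 ± 0.11, standard error, with an adjusted p of 0.00469). Polr1b, the second largest subunit of RNA polymerase I, was at 51.6, 38.4 and 52.3 CPM in CD8H, 80.4, 72.9 and 70.2 in dNK, 84.5, 70.3 and 62.4 in CD8L and 66.2, 69.9 and 65.3 CPM in IgG tumors, again without overlap (log2 fold change -0.59, standard error 0.12, adjusted p = 0.0057). These 2 calls held with each tumor left out in turn. Noc2l and Dkc1, a nucleolar protein of subunit assembly and the pseudouridine synthase of the H/ACA particles, had -0.51 and -0.59, and Ubtf, a transcription factor of RNA polymerase I, -0.36. Values of Noc2l, Dkc1 and Ubtf with single tumors left out are not given here.

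Myc was at 147, 95.2 and 169 CPM in CD8H, 215, 216 and 180 in dNK, 194, 222 and 166 in CD8L and 221, 191 and 181 CPM in IgG tumors. It fell in CD8H tumors (edgeR log2 fold change -0.53 ± 0.16, standard error, with an adjusted p of 0.0358), with 1 CD8L tumor below the highest CD8H tumor. The call was lost on leaving out any of 8 tumors in turn, namely CD8H 1 or 2, dNK 1 or 2, CD8L 1 or 2 and IgG 1 or 2, with adjusted p between 0.0513 and 0.135, and without CD8H tumor 2 the log2 fold change was -0.32. Eif4ebp2, a repressor of cap-dependent initiation under mTORC1 control, was at 125, 105 and 139 CPM in CD8H and 287, 325 and 299 in dNK tumors, with 194 to 282 CPM in CD8L and 212 to 234 CPM in IgG tumors. It lay below the 9 others in all CD8H tumors (log2 fold change -1.05, standard error 0.13, adjusted p = 0.00063). Rptor, a subunit of mTORC1, had -0.31 (adjusted p = 0.0101), and Eif4g1, the scaffold of the cap-binding complex, -0.52 (adjusted p = 0.0153). Whether the calls of Eif4ebp2, Rptor and Eif4g1 held with single tumors left out is not given here.

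A few genes of the ribosome fall outside the naming rule, and those named here were not called, nor was the elongation factor gene Eef1a1. Fau, which is made as a fusion with a ubiquitin-like protein, had a log2 fold change of 0.04 (adjusted p = 0.872) in CD8H tumors against the 3 other groups. Rack1, a scaffold protein of the small subunit, had -0.31 (adjusted p = 0.317). Eef1a1, the elongation factor that delivers aminoacyl-tRNA, was at 5719, 3638 and 5039 CPM in CD8H, 8072, 6433 and 6182 in dNK, 8092, 5858 and 5142 in CD8L and 5489, 5328 and 5641 CPM in IgG tumors, and had -0.37 (adjusted p = 0.205). CD8H tumor 2 was the lowest of the 12 for Rack1 and Eef1a1, and CD8L tumor 3 for Fau.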

How the data were processed

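RNA of 12 dissociated intracranial tumors, purified by poly-A selection, was sequenced as read pairs. The deposited table holds raw read counts per gene, which the authors made by alignment to GRCm38.p6 and counting per gene. The submitters' processing notes name STAR 2.6.1d, StringTie 1.3.3b, featureCounts 1.5.0-p3 and DESeq2 1.26.0. The deposited FPKM, made by the authors from the same counts per gene length and library, were used only to set members beside each other.

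All 12 libraries (16336993 to 26416214 counts) entered 1 edgeR 4.0.16 quasi-likelihood fit of the 4 groups (R 4.3.3; TMM factors 0.899 to 1.07; filterByExpr, keeping 17320 of 54532 genes; 8 residual degrees of freedom; two-sided). This is the test behind each adjusted p. Values of log2 CPM used a prior count of 2. Intervals are 95% from the fit. The steps were tested on simulated data. Library replicates differed by more than sampling noise. PCR duplicates were not told apart.

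Same-numbered dNK and CD8L tumors correlated in their deviations from the group means for each number (0.476 to 0.587), as checked from the data, and no other 2 groups did. The members and lists were chosen with earlier results of these data known. Named genes were every paralog, the highest and lowest members per length, those with the smallest p, those with the largest and smallest spread within groups, and members with a known role outside the ribosome. Genes named beyond these were chosen after their values were seen. The coding-length split was added after the values were seen, at 375 coding bases. Promoter windows came from RefSeq and exon overlaps and coding lengths from GENCODE M21, both of GRCm38. Alternatives were other scalings, filters, DESeq2 1.42.0, a replicate block, only the compared libraries, and each library left out. Values of a few single genes are not reported here.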

Additional observations from a re-analysis of the deposited data

Results flagged for a closer look

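Pseudogene rows named after a ribosomal protein entered none of the comparisons, and in CD8H tumors their counts, taken relative to the core ribosomal protein counts, lay above those of the control tumors. The dNK and CD8L tumors lay within the range of the IgG tumors, and the core counts that form the base took the smallest share of the library in CD8H tumor 2. Of 380 such rows, 203 had any count. Their counts came to 0.347%, 0.380% and 0.352% of the core ribosomal protein counts in CD8H tumors (mean 0.36 ± 0.018%, SD, n = 3), 0.310%, 0.324% and 0.317% in dNK tumors, 0.310%, 0.323% and 0.309% in CD8L tumors and 0.257%, 0.311% and 0.340% in IgG tumors. The 3 CD8H tumors lay above the 9 others, and the difference was not tested. The core genes that form the base took a mean of 3.18% of all counts in CD8H tumors. That mean was 4.05% in dNK, 3.56% in CD8L and 3.48% in IgG tumors. The ratio by itself therefore does not show more pseudogene counts per library in CD8H tumors. Rpl19-ps11 held 15.9% of these counts. It had 462, 365 and 382 counts in CD8H and 517, 345 and 377 counts in dNK tumors. In CD8L tumors it had 563, 334 and 361 counts, and in IgG tumors 114, 244 and 413 counts, all before scaling to library size.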

How the results depend on the processing

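Precision was limited by 3 tumors per group and, for Rpl24 (6 to 24 counts per tumor) and Rps10 (50 to 138), also by depth. In all, 655 of the values for named genes kept their direction and side of the threshold, 25 changed sign, 13 passed the threshold and 6 fell short of it. Of the counts, medians and shares, 269 stayed and 19 moved. Rps25, the core member called in CD8H against dNK tumors, kept its direction in each alternative. The comparisons of CD8H with IgG, dNK with CD8L, dNK with IgG and CD8L with IgG gave 0 calls throughout.

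For core members called, CD8H against the 3 other groups (0 called) gave 2 with DESeq2 and 0 to 3 with 1 tumor left out. CD8H against dNK (1 called) gave 2 without TMM (30.7% of all genes called) and 11 with DESeq2 (44.8%). The same comparison gave 0 with only the compared libraries (22.6%) and 0 to 31 with 1 tumor left out. CD8H against CD8L (0 called) gave 1 with DESeq2 and 0 to 1 with 1 tumor left out. The causes were not tested. For the biogenesis factors called lower in CD8H against the 3 other groups (17 called), alternatives added after seeing the data gave 31 with DESeq2, 28 with the replicate block and 5 to 33 with 1 tumor left out. Of all genes, DESeq2 called 36.9% and the fit with the replicate block 33.5%, in either direction. The median log2 fold change of the core members kept its sign under each other scaling, filter and tool in all 7 comparisons. In CD8L against IgG tumors, where it was 0.09 and 20 members were negative, it was 0.01 with 37 negative without TMM, and -0.06 to 0.15 with 1 tumor left out. Without TMM the median of all genes was shifted to 0.13 in CD8H against dNK.

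With the replicate number as a replicate block, CD8H against the 3 other groups gave 12 calls (1 higher, 11 lower) where 33.5% of all genes were called, CD8H against dNK 38 where 39.1% were, and CD8H against CD8L 1 where 16.9% were. The numbers did not pair the samples throughout the series. Correlations of same-numbered tumors ran from -0.36 to 0.73, with 11 of 18 over 0.1. Each number correlated above 0.1 only between dNK and CD8L tumors (0.476 to 0.587), where the block gave 0 calls and a median of 0.20. For number 1 alone, every pair of groups lay above 0.1, from 0.303 (dNK with IgG) to 0.73 (CD8H with IgG). Tumor 1 had the highest ribosomal share of its group in all 4 groups. It also had the lowest share of mitochondrially encoded counts, at 1.90% in CD8H, 1.83% in dNK, 1.65% in CD8L and 1.96% in IgG tumors. In all, 7 of 12 tumors correlated best with their own number.

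Among members without a call in CD8H against the 3 other groups, the log2 fold change of Rpl22 was 0.041 without TMM, 0.038 with upper quartile factors, 0.0073 with DESeq2 and 0.013 with a minimum of 1 CPM in 3 libraries. With 1 tumor left out it ran from -0.19 to 0.14 for Rpl22, -0.16 to 0.28 for Rpl34, -0.12 to 0.21 for Rpl36a, -0.42 to 0.088 for Rpl38, -0.41 to 0.036 for Rpl41, -0.39 to 0.0093 for Rpl5, -0.27 to 0.16 for Rps10, -0.17 to 0.21 for Rps24, -0.40 to 0.052 for Rps27a, -0.60 to 0.051 for Rps28 and -0.50 to 0.19 for Rps29.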
